A study of Mus musculus with 24 samples.

Results

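Loss of Bmal1 from the retinal pigment epithelium (RPE) was examined here at a single time of day, ZT7, that is 7 h after light onset. The comparison set 3 RPE Bmal1 KO libraries against 3 RPE Bmal1 WT libraries, and these are 6 of the 24 libraries of the series. The libraries were taken by their genotype and time labels, and 18399 autosomal genes with enough counts in the 6 libraries, of 53700 gene identifiers in the count table, were tested. The series collected both genotypes at ZT1, ZT7, ZT13 and ZT19 to ask how the clock of the RPE shapes its daily transcriptome.

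All mice were C57BL/6, 12 to 16 weeks old, of both sexes, and kept in 12 h of light and 12 h of darkness. Both groups carried Rpe-CRE (Vmd2-rtTA/TetO-cre) together with Bmal1 fl/fl on both chromosomes. The KO mice received a doxycycline diet from postnatal day 60 to 74, which switches on Cre, whereas the study's methods give the WT mice regular diet over the same days. The sample records name doxycycline food for every sample, and the account in the methods is followed for what the WT mice ate. Genotype and doxycycline exposure therefore cannot be told apart in this comparison. Vmd2 is the promoter of the RPE gene Best1. The study describes a mosaic loss of BMAL1 protein among RPE cells and rare Cre activity in the plexiform layers of the retina. Each library held RNA from both eyes of 1 mouse, released by brief sonication from a posterior segment made of RPE, choroid and sclera. In such bulk tissue, fewer cells of a type and less RNA per cell cannot be told apart.

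BMAL1, encoded by Arntl, pairs with CLOCK or NPAS2 and binds E-boxes, with the letters CACGTG, in front of its target genes. Among these targets are the Period and Cryptochrome genes, whose proteins return to silence the BMAL1 complex, and the REV-ERB and ROR receptors, which repress and activate Arntl itself. In the RPE this clock has been tied to the daily burst of outer segment engulfment after light onset. Around midday, BMAL1 occupancy and the transcription of E-box targets such as Dbp and Nr1d1 are known from mouse tissues to run high, so ZT7 is a time at which these targets are usually read.

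The E-box was looked for, on both strands, from 250 bases before to 50 bases after the start of each gene in the RefSeq mouse promoters of build GRCm38.p6, which is mm10. It was present in 8.09% of 27025 promoters and in 10.9% of the 11536 tested genes with a promoter sequence. Per1, Cry1, Ciart and Bhlhe41 held it, 4 of the 16 core clock genes with a sequence, and so did the clock output gene Tef. The windows are shown because they carry the element that BMAL1 reads, with the E-box in capitals and 20 flanking bases on either side, on the strand of the gene. They lie at chr11:69098763-69098808 (Per1, plus strand), chr10:85185089-85185134 (Cry1, minus strand), chr3:95882247-95882364 (Ciart, minus strand, with 3 E-boxes), chr15:81802526-81802571 (Tef, plus strand) and chr6:145865548-145865593 (Bhlhe41, minus strand).
Per1: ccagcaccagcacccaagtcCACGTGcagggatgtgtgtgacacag
Cry1: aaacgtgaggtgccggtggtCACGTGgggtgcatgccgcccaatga
Ciart: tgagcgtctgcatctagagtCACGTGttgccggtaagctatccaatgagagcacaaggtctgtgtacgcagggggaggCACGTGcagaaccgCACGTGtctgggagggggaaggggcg
Tef: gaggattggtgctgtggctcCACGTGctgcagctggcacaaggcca
Bhlhe41: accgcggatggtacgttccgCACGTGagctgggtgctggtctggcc
A match is a description of the letters and not evidence of binding in these eyes.

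The libraries held between 2069527 and 9811251 counts. WT replicate 1 stood apart from the other libraries. It was the shallowest, with 869564 autosomal counts, and 41.7% of its counts came from mitochondrially encoded genes against 4.91% to 17.1% in the other 5. Its log2 CPM values (CPM are counts per 1000000 counts of the tested genes, after TMM scaling) correlated with those of the other libraries at 0.803 to 0.855, whereas the other pairs ran from 0.89 to 0.969. Counts on olfactory and vomeronasal receptor genes made up 5066 CPM of its autosomal counts and 124 to 978 CPM elsewhere. The 978 CPM belonged to KO replicate 1, which was the next shallowest library, with 1894619 autosomal counts. Values without WT replicate 1 therefore stand beside many of the results below, while those without KO replicate 1 mostly do not. RPE genes were present in all 6 libraries, with Rgr at 537 to 2359 CPM and Rpe65 at 53.2 to 187 CPM, but so were genes of neighbouring tissues, among them corneal Krt12 at 574 to 4499 CPM and muscle Ttn at 12120 to 52320 CPM, and the tested rod genes summed to 1715 to 12820 CPM. Sex-linked counts put females in replicates 1 and 2 and males in replicate 3 of both genotypes, so sex was balanced.

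No autosomal gene separated the RPE Bmal1 KO from the RPE Bmal1 WT at ZT7 by edgeR's quasi-likelihood test (0 of 18399, 0%), and the smallest adjusted p was 0.995. An unadjusted p under 0.05 was reached by 383 genes, 167 with higher values in the KO (0.908% of the tested genes) and 216 with lower values (1.17%). DESeq2 called 1 gene (0.00544%), and limma called 0 with 388 genes at an unadjusted p under 0.05. All 3 KO libraries lay above all 3 WT libraries for 761 genes (4.14%) and below them for 739 (4.02%). Among the genes with lower values in the KO at an unadjusted p under 0.05, 181 of 216 were highest in WT replicate 1, and 53 kept both that p and that direction without it. Among those with higher values in the KO, 54 of 167 did. Without WT replicate 1 the filter kept 19128 genes. The test again called 0 of them, with 244 at an unadjusted p under 0.05 and a smallest adjusted p of 0.9997. Of the 18399 genes tested above, 18393 were in that fit, 145 higher and 76 lower at that unadjusted p. The typical standard error of a log2 difference was 0.367 over all tested genes and 0.308 over the 12273 genes whose mean reached 10 CPM. None of the genes named below passed the adjusted threshold of 0.05 in edgeR, and each is given by its values and its unadjusted p. The table does not say whether antisense reads were kept apart, so genes with an exon overlapping one on the opposite strand, 5179 of those tested, are uncertain in that respect.

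**Figure D1:**
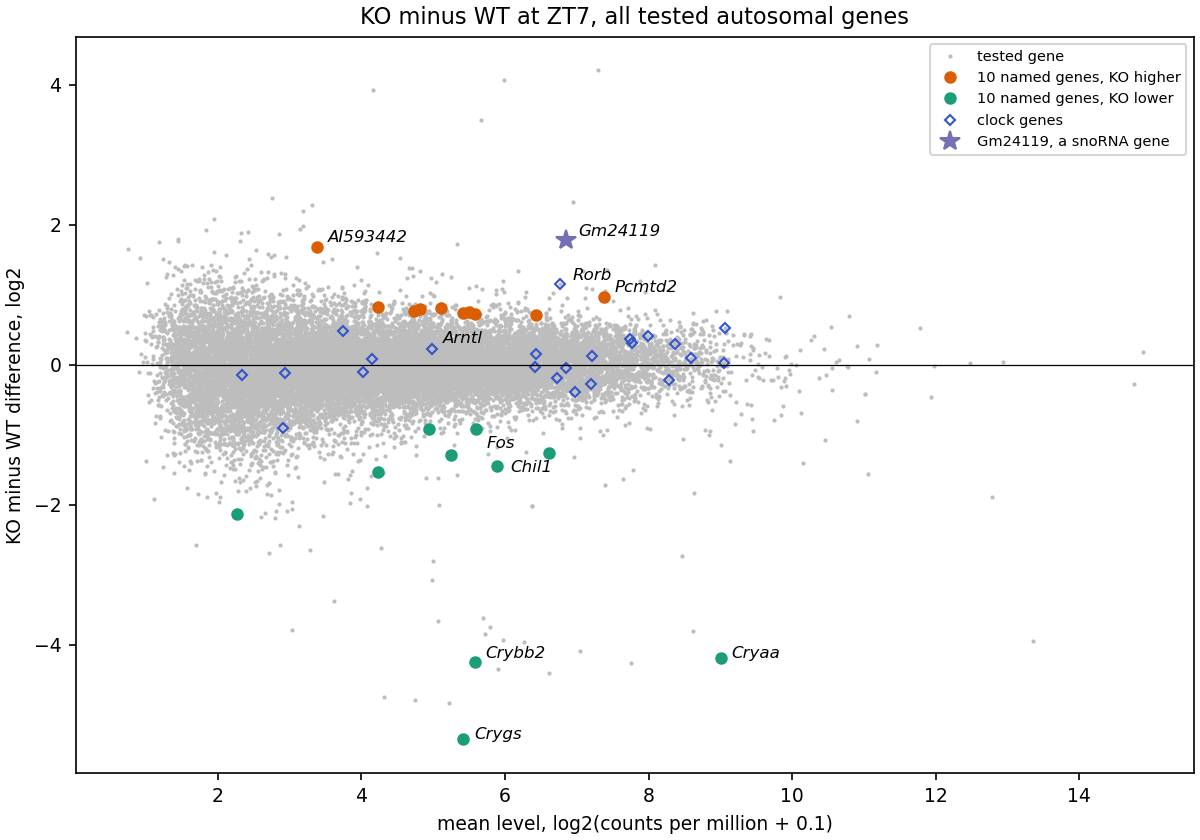
The KO minus WT difference at ZT7 on the log2 scale (vertical axis) is plotted against the mean level of each of the 18399 tested genes as log2(CPM + 0.1) (horizontal axis). Clock genes (diamonds) lay within the cloud apart from Rorb, the 10 named genes with higher KO values (orange) differed by 0.71 to 1.69, and the lens crystallins Cryaa, Crybb2 and Crygs lay lowest among the 10 named genes with lower KO values (green).

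Arntl itself did not separate the genotypes. It read 13.6, 30.9 and 40.5 CPM in WT replicates 1 to 3 and 25.8, 32.2 and 46.0 CPM in KO replicates 1 to 3. The genotypes overlapped, and WT replicate 1 gave the lowest value of the 6. The log2 difference was 0.23 ± 0.37 (SE, edgeR, unadjusted p = 0.543), and its 95% interval ran from 0.668 to 2.06 times the WT level. Without WT replicate 1 the difference was -0.03. The count table sums reads over the whole gene, so it does not check the loss of the floxed part, and Arntl also overlaps Gm45355 on the opposite strand. The labels of the KO libraries thus rest on the records and not on this gene.

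The partners of BMAL1 showed similarly mixed values. Clock, which encodes the usual partner, read 139, 264 and 180 CPM in the WT and 314, 214 and 199 CPM in the KO, a log2 difference of 0.31 ± 0.31 (unadjusted p = 0.339). Npas2, which can stand in for Clock in the mouse brain, read 17.3, 12.6 and 20.04 CPM in the WT and 15.8, 15.8 and 15.0 CPM in the KO, with a difference of -0.10 ± 0.31. Both genes overlapped between the genotypes.

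Period and Cryptochrome genes, the repressors that close the loop, overlapped between the genotypes as well. Per1, with its E-box shown above, read 172, 81.4 and 177 CPM in the WT and 68.6, 105 and 151 CPM in the KO (log2 difference -0.39 ± 0.37, unadjusted p = 0.309). Per2 read 85.4, 59.0 and 115 CPM in the WT and 80.2, 80.9 and 94.0 CPM in the KO, and its 95% interval spanned 0.639 to 1.51 times the WT level. Per3 read 191, 294 and 401 CPM in the WT and 348, 384 and 361 CPM in the KO (0.30 ± 0.30). The spread among the WT libraries was wider than that among the KO libraries for Per2 and Per3. Cry1 read 8.67, 9.83 and 13.8 CPM in the WT and 16.9, 12.1 and 18.1 CPM in the KO (0.49 ± 0.34, unadjusted p = 0.179). For Cry1, 2 of the 3 KO libraries lay above all WT libraries. Cry2 read 54.5, 78.1 and 111 CPM in the WT and 78.0, 85.0 and 112 CPM in the KO (0.16 ± 0.29).

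Among the nuclear receptors of the second loop, Nr1d1 and Nr1d2 encode the REV-ERB repressors of Arntl. Nr1d1 read 324, 483 and 774 CPM in the WT and 622, 435 and 556 CPM in the KO, a log2 difference of 0.03 ± 0.35, with a 95% interval from 0.595 to 1.74 times the WT level. Nr1d2 read 154, 218 and 185 CPM in the WT and 282, 228 and 211 CPM in the KO (0.37 ± 0.25, unadjusted p = 0.171). Neither receptor separated the genotypes. The ROR receptors oppose them at the same DNA element. Rorb was the only one of the 21 core clock genes at an unadjusted p under 0.05, with 59.4, 49.2 and 92.0 CPM in the WT and 86.5, 95.3 and 267 CPM in the KO (1.16 ± 0.44, unadjusted p = 0.026). The difference was 0.43 without KO replicate 3 and 1.09 without WT replicate 1. Its highest value by far came from KO replicate 3, which was also the library with the most rod transcripts, and KO replicate 1 lay below WT replicate 3. Rorb is also expressed in photoreceptor and inner retinal cells, and the part of retinal RNA in its difference was not tested. Rora read 187, 259 and 204 CPM in the WT and 358, 238 and 273 CPM in the KO (0.41 ± 0.27).

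Other repressors and the proteins that set the stability of PER and CRY gave mostly small differences. Ciart, the repressor with 3 E-boxes in its promoter, read 23.5, 8.47 and 20.04 CPM in the WT and 23.7, 13.2 and 16.8 CPM in the KO (0.08 ± 0.41). Bhlhe40, which encodes an E-box-binding repressor, read 209, 341 and 458 CPM in the WT and 299, 289 and 281 CPM in the KO (-0.22 ± 0.31). Its relative Bhlhe41 read 135, 122 and 168 CPM in the WT and 158, 145 and 163 CPM in the KO (0.13 ± 0.23), one of the narrower errors of the set. Csnk1d, a kinase that marks PER for degradation, was the only core clock gene without overlap, at 152, 149 and 179 CPM in the WT and 118, 138 and 142 CPM in the KO (-0.27 ± 0.22, unadjusted p = 0.25). Its share, 1 of 21 genes lower without overlap and 0 higher, stood beside 4.02% and 4.14% of all tested genes. Csnk1e (-0.18 ± 0.24), the ubiquitin ligase gene Fbxl21 (-0.14 ± 0.49) and Timeless (-0.90 ± 0.78) overlapped too. Timeless read 23.5 CPM in WT replicate 1 and 1.58 to 6.36 CPM in the other 5 libraries, and its difference was 0.20 without that library.

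Dbp, Tef and Hlf, the PAR bZIP activators that carry clock time to metabolic genes, and their antagonist Nfil3 did not separate the genotypes. Dbp, a classical BMAL1 target, read 95.3, 91.2 and 163 CPM in the WT and 75.4, 120 and 144 CPM in the KO, a log2 difference of -0.05 ± 0.32 and a 95% interval from 0.589 to 1.58 times the WT level. Tef read 276, 370 and 465 CPM in the WT and 401, 386 and 406 CPM in the KO (0.10 ± 0.27). Hlf read 276, 528 and 509 CPM in the WT and 856, 550 and 497 CPM in the KO (0.53 ± 0.35), with the highest value in KO replicate 1 and the lowest in WT replicate 1. Nfil3 read 17.3, 3.004 and 5.34 CPM in the WT and 6.33, 4.38 and 8.70 CPM in the KO (-0.12 ± 0.64), and its difference was 0.61 without WT replicate 1. Over the 21 tested genes of the wider clock output list, 0 reached an unadjusted p under 0.05. The median difference of the list was -0.14 with all libraries and -0.07 without WT replicate 1. Of the 21, 15 had a lower mean in the KO. Without overlap 2 lay lower (9.52%) and 0 higher, beside 4.02% and 4.14% of all tested genes.

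The median of the 21 core clock genes was 0.08 with all 6 libraries and -0.03 without WT replicate 1, beside -0.02 and 0.01 over all tested genes. Of the 21, 12 had a higher and 9 a lower mean in the KO. The 1256 tested genes with an E-box in the promoter had a median of -0.02, like that of all tested genes, and 4.14% of them lay higher and 3.9% lower in the KO without overlap, beside 4.14% and 4.02% overall.

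**Figure D2:**
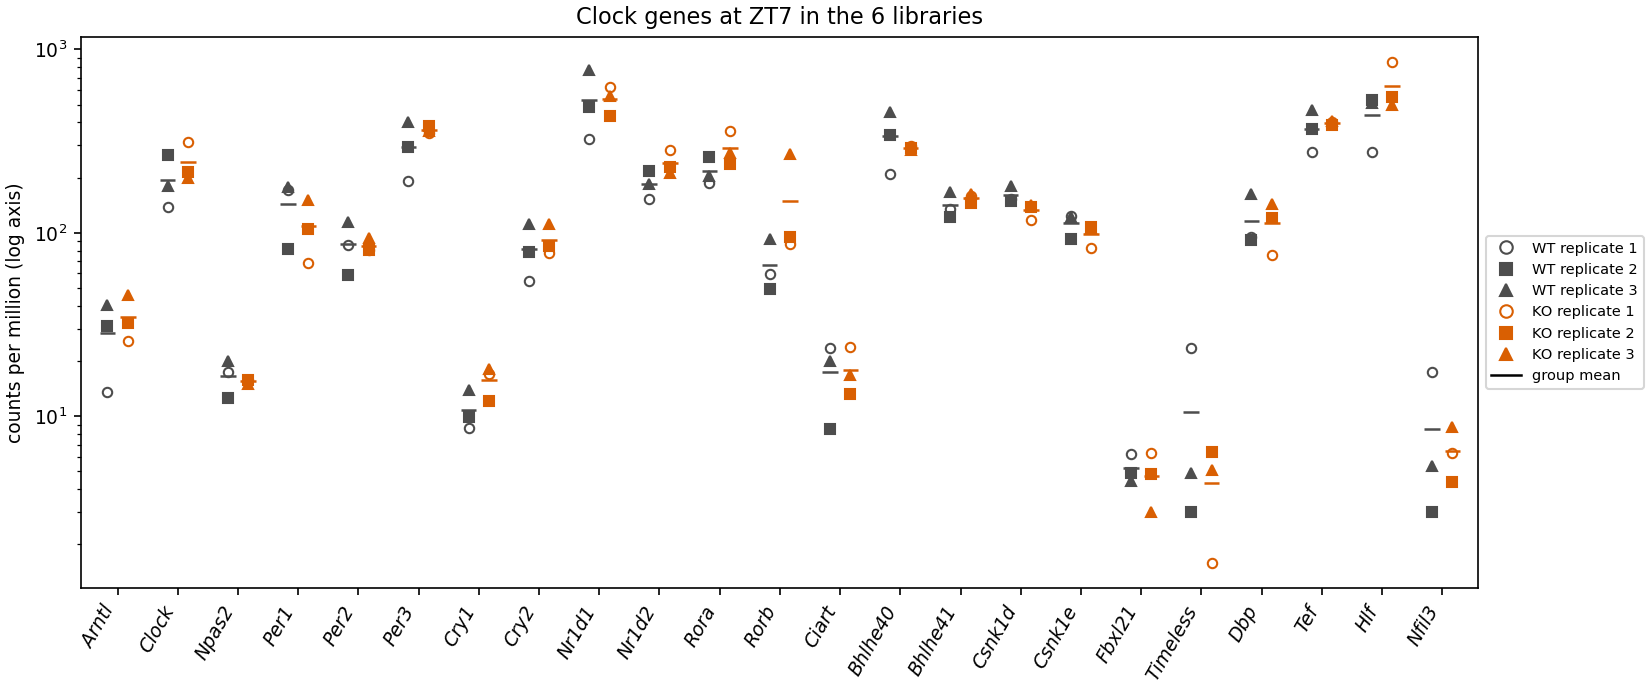
CPM (log axis) of 23 clock genes in the 3 RPE Bmal1 WT libraries (grey) and the 3 RPE Bmal1 KO libraries (orange) at ZT7, with open circles, squares and triangles for replicates 1, 2 and 3 and a line for each group mean. The genotypes overlap for each gene except Csnk1d, and Rorb in KO replicate 3, at 267 CPM, stands above its group.

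The gene with the smallest p over all genes was Gm24119, a small nucleolar RNA gene at chr10:91118291-91118536 (mm10, minus strand). It read 38.4, 63.1 and 52.7 CPM in the WT and 96.5, 217 and 222 CPM in the KO. All 3 KO libraries lay above all 3 WT libraries. The log2 difference was 1.78 ± 0.35 (edgeR, unadjusted p = 0.000463, adjusted p = 0.995), and 1.63 without WT replicate 1. It was the 1 gene that DESeq2 called, with an adjusted p of 0.0309. At the other times of day the difference was -0.38 at ZT1, 0.52 at ZT13 and 1.48 at ZT19, and the departure of ZT7 from their mean was 1.23 ± 0.68. Being no protein-coding gene, it lies outside the rule for naming genes and was singled out after its values were seen.

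The 10 protein-coding genes with the smallest unadjusted p among those higher in the KO without overlap had log2 differences of 0.71 to 1.69. AI593442, an uncharacterised gene, led them at 3.71, 2.46 and 7.87 CPM in the WT and 9.49, 11.4 and 27.0 CPM in the KO (log2 difference 1.69 ± 0.55, unadjusted p = 0.012). Pcmtd2, related to enzymes that repair aged proteins, read 76.8, 121 and 137 CPM in the WT and 185, 167 and 311 CPM in the KO (0.98 ± 0.32). KO replicate 3 was the highest library for both. Smc3, a subunit of the cohesin ring that holds sister chromatids together, read 18.6, 30.9 and 24.04 CPM in the WT and 44.3, 51.1 and 37.3 CPM in the KO (0.81 ± 0.27, unadjusted p = 0.0128). Psmc6, an ATPase of the proteasome cap, read 14.9, 24.03 and 18.9 CPM in the WT and 34.8, 35.1 and 31.7 CPM in the KO (0.77 ± 0.26). The KO libraries lay close to each other for Psmc6 and spread a little more for Smc3.

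Eif3e, a subunit of a translation initiation factor, read 21.04, 24.03 and 16.6 CPM in the WT and 43.2, 31.8 and 32.2 CPM in the KO (log2 difference 0.80 ± 0.27). Rfx3, a transcription factor of ciliated cells, read 34.7, 39.3 and 33.5 CPM in the WT and 73.8, 55.5 and 50.8 CPM in the KO (0.73 ± 0.25). Tlk1, a kinase of chromatin assembly, read 31.0, 37.7 and 31.5 CPM in the WT and 69.6, 54.6 and 46.7 CPM in the KO (0.76 ± 0.25), and it overlaps Gorasp2 on the opposite strand. Rfx3 and Tlk1 had narrow WT groups and their highest value in KO replicate 1. Ndst3, a heparan sulfate enzyme, Abca5, a lipid transporter of lysosomes, and the zinc finger gene Zfp654 completed the set with differences of 0.83, 0.75 and 0.71. Leaving out WT replicate 1 kept all 10 positive, between 0.61 (Zfp654) and 1.61 (AI593442), with unadjusted p from 0.0257 (Eif3e) to 0.0453 (Zfp654). The sign was set by the choice of genes without overlap. These p values reuse libraries by which the genes were chosen, so they are no separate support.

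The 10 protein-coding genes with the smallest unadjusted p among those lower in the KO without overlap had log2 differences from -5.35 to -0.91. Cryaa, Crybb2 and Crygs encode crystallins, the proteins of the lens, and are described with their list below. Chil1, a secreted chitinase-like protein, read 155, 45.9 and 61.9 CPM in the WT and 31.1, 30.7 and 31.4 CPM in the KO (log2 difference -1.45 ± 0.41, unadjusted p = 0.00564). The KO libraries were nearly equal, WT replicate 1 was the highest, and the difference was -0.80 without it. Siglec1, a sialic acid receptor of macrophages, read 49.5, 16.1 and 19.3 CPM in the WT and 6.86, 9.64 and 10.3 CPM in the KO (-1.53 ± 0.45), and -0.96 without WT replicate 1. Gdf10, a TGF-beta family ligand, read 81.7, 24.9 and 56.6 CPM in the WT and 20.6, 21.04 and 23.1 CPM in the KO (-1.28 ± 0.39), and -0.92 without WT replicate 1. Again the KO libraries agreed closely while the WT libraries spread.

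Fbln2, which encodes the matrix protein fibulin-2, read 236, 93.1 and 87.0 CPM in the WT and 48.0, 58.7 and 62.7 CPM in the KO (log2 difference -1.26 ± 0.38), and -0.67 without WT replicate 1. Hist1h2bm, a replication-dependent histone gene, read 12.4, 3.55 and 7.72 CPM in the WT and 0.527, 2.41 and 1.62 CPM in the KO (-2.12 ± 0.65), at levels of few counts, and -1.78 without WT replicate 1. It reached the 2.45 CPM that the filter on low counts asks of 3 libraries in all WT libraries and in 1 KO library. Plekha4, a phosphoinositide-binding adaptor, read 52.0, 39.6 and 29.5 CPM in the WT and 16.9, 23.0 and 22.1 CPM in the KO (-0.91 ± 0.28). WT replicate 1 was the highest library for each of these genes. Fos, the last of the 10, is given with the immediate early genes.

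Of the gene lists examined, the lens list had the median farthest from 0 (-3.79), and each of its tested genes was highest in WT replicate 1. Crystallins fill the fibre cells of the lens, although Cryab and Cryba1 are also known in the RPE. Of 29 listed lens genes 11 were tested, all 11 had a lower mean in the KO, 9 at an unadjusted p under 0.05, and 6 lay lower without overlap, beside 1.17% and 4.02% of all tested genes. Of the 11, Crygs and Cryba2 reached the filter's 2.45 CPM in all WT libraries and in 0 KO libraries, so they entered the test through the group where they are high. Cryaa read 2561, 202 and 159 CPM in the WT and 60.6, 31.8 and 66.5 CPM in the KO (log2 difference -4.19 ± 1.00, unadjusted p = 0.00185). Crybb2 read 235, 16.7 and 20.04 CPM in the WT and 5.80, 2.19 and 5.59 CPM in the KO (-4.24 ± 1.02). Crygs read 240, 7.65 and 3.41 CPM in the WT and 1.58, 1.32 and 2.36 CPM in the KO (-5.35 ± 1.49). The other WT libraries also lay above every KO library for these 3, which the rule that named them requires. Mip, the water channel of fibre cells, read 145, 7.37 and 1.93 CPM in the WT and 3.16, 0.438 and 1.86 CPM in the KO (-4.78 ± 1.47), and WT replicate 3 lay within the KO range.

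Without WT replicate 1 the lens median moved from -3.79 to -0.85. Cryaa was then -1.77 (unadjusted p = 0.000703), Crybb2 -2.05, Crygs -1.55 and Mip -1.43 (unadjusted p = 0.117), and 10 of 11 genes kept a lower KO mean, 3 at an unadjusted p under 0.05. Over all tested genes, 9052 of 18393 had a lower KO mean without WT replicate 1, 76 of them at that p. The summed level of the tested lens genes was 4514 CPM in WT replicate 1, 723 and 637 CPM in the other WT libraries and 339 to 506 CPM in the KO. The lens genes had the opposite sign at ZT1, where their median KO minus WT difference was 4.12, and stood at -2.39 at ZT13 and -0.56 at ZT19. Whether lens tissue taken along at dissection has a part in these values was not tested.

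Immediate early genes, which neurons and epithelia switch on within minutes of a stimulus, had lower means in the KO in 27 of 29 tested genes. Their median was -0.38, beside -0.02 over all tested genes, and -0.26 without WT replicate 1, when 24 of 29 were lower. No gene passed the adjusted threshold, 5 reached an unadjusted p under 0.05 (Fos, Fosb, Myc, Egr1 and Egr2), beside 1.17% of all tested genes lower at that level, and 4 of these (13.8% of the list) lay lower without overlap, beside 4.02% of all tested genes. Fos, which encodes a subunit of the AP-1 transcription factor, read 80.5, 42.9 and 67.7 CPM in the WT and 28.5, 34.0 and 36.9 CPM in the KO (log2 difference -0.92 ± 0.28, unadjusted p = 0.00906). The 95% interval of the KO level was 0.342 to 0.822 times that of the WT. Fosb, its close relative, read 28.5, 6.83 and 20.8 CPM in the WT and 4.75, 6.14 and 6.71 CPM in the KO (-1.56 ± 0.50, unadjusted p = 0.0107). The lowest WT library, replicate 2, came within a narrow margin of the KO libraries for Fosb.

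Myc, a growth regulator induced in the same way, read 33.4, 21.9 and 35.0 CPM in the WT and 8.44, 19.7 and 15.2 CPM in the KO (log2 difference -1.01 ± 0.35, unadjusted p = 0.0164). Egr1, a zinc finger factor that marks recent activity, read 193, 105 and 238 CPM in the WT and 50.1, 77.4 and 131 CPM in the KO (-1.04 ± 0.40, unadjusted p = 0.025). Egr1 alone of the 5 overlapped, because KO replicate 3 lay above WT replicate 2. Without WT replicate 1, Fos was at -0.74 (unadjusted p = 0.0308), Fosb at -1.23 (0.0347), Myc at -0.95 (0.0388), Egr1 at -0.99 (0.0618) and Egr2 at -0.98 (0.0988), and 3 of the 29 genes reached an unadjusted p under 0.05. Over all tested genes, 76 of 18393 were lower at that p without WT replicate 1. KO replicate 1 was the lowest of the 6 libraries for 18 of the 29 genes, but the share of all tested genes lowest in it was not counted. WT replicate 1 was the highest for 17 of the 29, beside 5494 of 18399 tested genes. Jun, Junb, Ier2, Zfp36 and Dusp1 overlapped between the genotypes and had differences from -0.45 (Jun) to -0.75 (Junb). Fosl2 (0.01) and Klf6 (0.06) were the 2 genes with a higher KO mean.

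**Figure D3:**
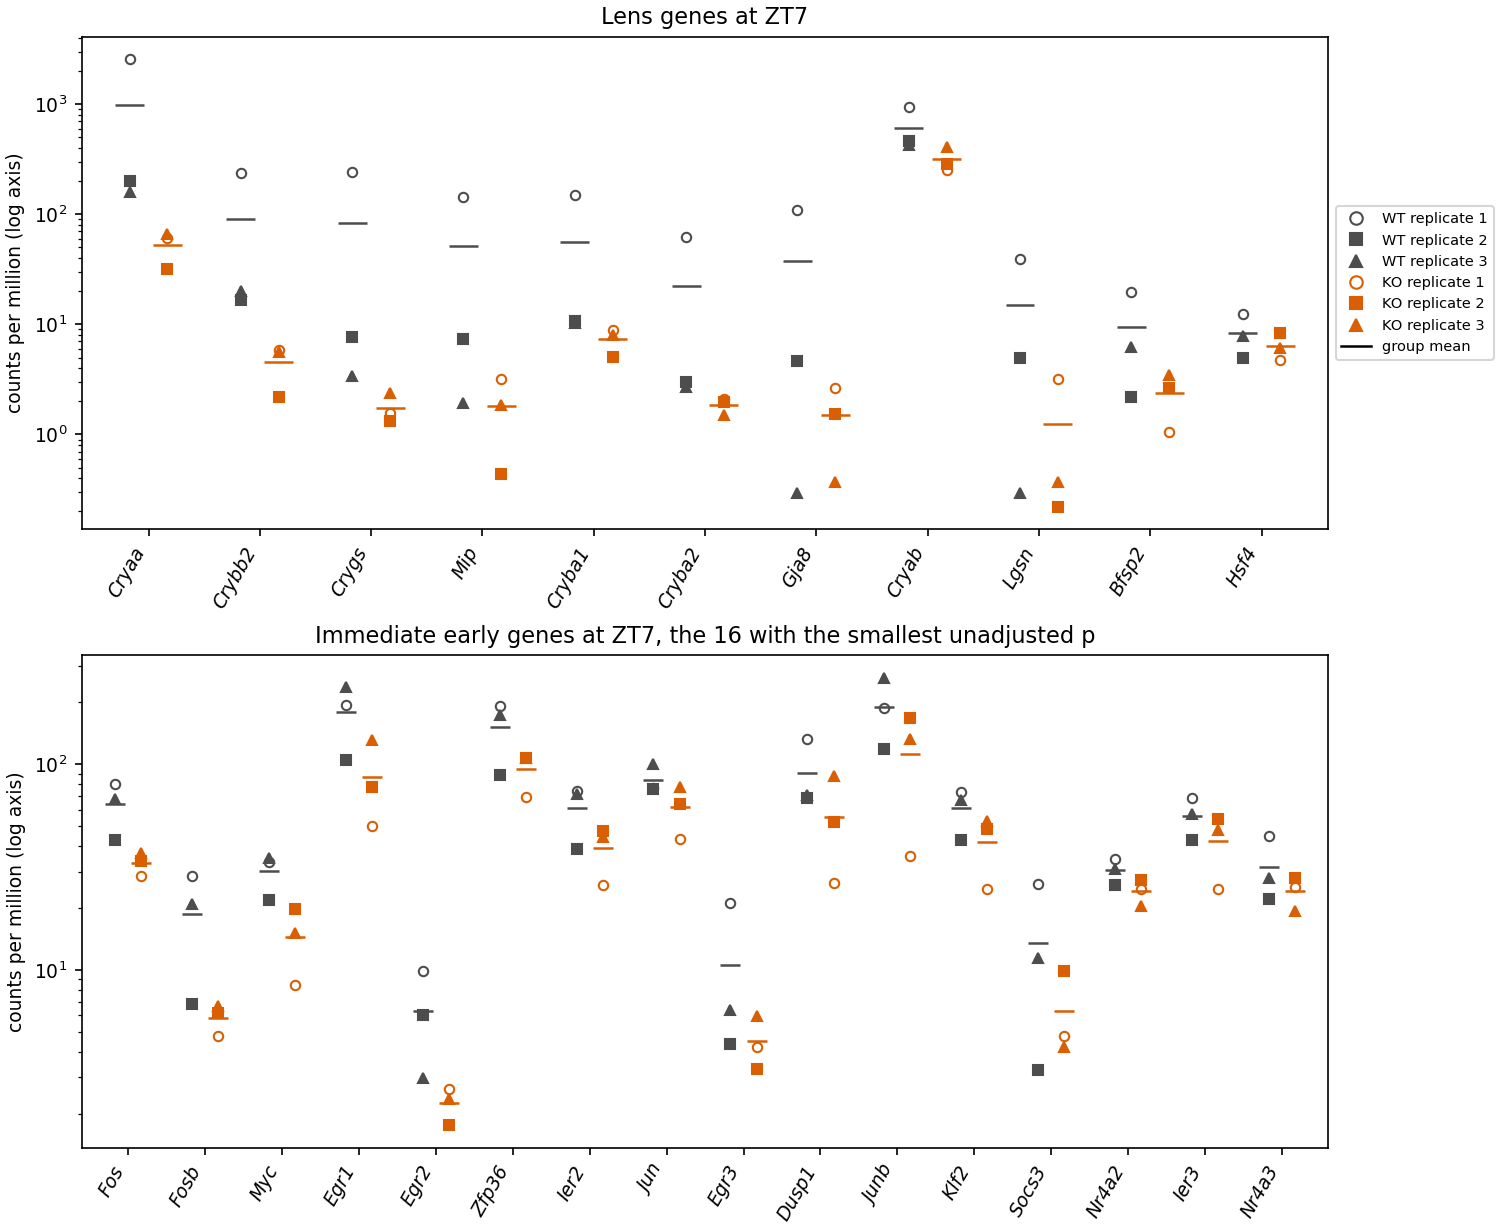
CPM (log axis) of the 11 tested lens genes (top) and of 16 immediate early genes (bottom) in each ZT7 library, with WT in grey, KO in orange, open circles for replicate 1, squares for 2, triangles for 3 and lines for group means. WT replicate 1 tops every lens gene, at 2561 CPM for Cryaa. All 3 WT libraries lie above the KO libraries for 6 of the 11 lens genes and for Fos, Fosb, Myc and Egr2.

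Genes of the RPE itself showed no common direction. Of 37 tested genes for the visual cycle and RPE identity, 22 had higher and 15 lower means in the KO, 1 in each direction reached an unadjusted p under 0.05, and 0 separated the genotypes. Serpinf1, which encodes the neuroprotective factor PEDF, read 96.6, 41.5 and 63.8 CPM in the WT and 30.1, 43.8 and 31.7 CPM in the KO (log2 difference -0.90 ± 0.33, unadjusted p = 0.0211), and -0.58 (unadjusted p = 0.0844) without WT replicate 1. Slc26a7, an anion transporter, read 34.7, 40.1 and 37.3 CPM in the WT and 172, 61.6 and 29.1 CPM in the KO (1.201 ± 0.53). Its KO values ran from below to far above the WT range, with KO replicate 1 the highest. Rpe65, the isomerase that regenerates 11-cis retinal, read 53.2, 55.2 and 132 CPM in the WT and 187, 115 and 116 CPM in the KO (0.77 ± 0.38, unadjusted p = 0.0705). Itgb8, an integrin subunit, was at 0.78 ± 0.42 with 1142 CPM in KO replicate 1. The summed level of the 37 genes ran from 5283 to 10820 CPM in the WT and from 7290 to 10580 CPM in the KO, and their median was 0.07, or -0.03 without WT replicate 1.

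Engulfment of outer segments uses the integrin subunit Itgb5 to bind and the kinase Mertk to internalise. Itgb5 read 69.3, 58.7 and 73.9 CPM in the WT and 58.0, 66.4 and 59.4 CPM in the KO (log2 difference -0.13 ± 0.23), and the 95% interval spanned 0.644 to 1.29 times the WT level. Mertk read 38.4, 36.6 and 56.7 CPM in the WT and 52.2, 38.1 and 39.1 CPM in the KO (-0.05 ± 0.27), with an interval from 0.637 to 1.47. Both receptors overlapped between the genotypes. Axl, a receptor related to Mertk, read 149, 106 and 130 CPM in the WT and 102, 92.3 and 92.0 CPM in the KO (-0.42 ± 0.23, unadjusted p = 0.0986), without overlap. Gas6, a ligand that bridges outer segments to these receptors, read 115, 88.5 and 134 CPM in the WT and 36.4, 83.1 and 99.3 CPM in the KO (-0.61 ± 0.35), and Myo7a, a motor that moves phagosomes, was at -0.41 ± 0.33. Of 31 uptake genes, 20 had a lower mean (median -0.11, or -0.04 without WT replicate 1), 3 lay lower without overlap (Cryba1, Axl and Rubcn, 9.68% of the list beside 4.02% of all tested genes) and 1 reached an unadjusted p under 0.05. That gene was Cryba1 (-2.80 ± 0.96), which encodes a crystallin also needed by RPE lysosomes, and it read 149 CPM in WT replicate 1 and 5.04 to 10.7 CPM elsewhere. Its difference was -0.54 without that library.

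The dopamine D2 receptor gene Drd2, through which dopamine acts on the engulfment peak, was at low levels, with 6.19, 1.64 and 2.82 CPM in the WT and 2.11, 2.85 and 8.57 CPM in the KO. Its log2 difference was 0.69 ± 0.70 (unadjusted p = 0.348), and the 95% interval ran from 0.55 to 4.71 times the WT level. Dio2, which activates thyroid hormone, read 126, 18.6 and 9.65 CPM in the WT and 18.5, 12.3 and 14.9 CPM in the KO (-1.62 ± 0.79, unadjusted p = 0.0683). That difference was 0.11 without WT replicate 1, and Dio2 overlaps Gm26512 on the opposite strand. Of 22 tested dopamine and thyroid genes, 0 reached an unadjusted p under 0.05, with Ppp1r1b at -0.92 ± 0.49 (-0.45 without WT replicate 1), Drd1 at 0.84 ± 0.55 and Gnai3 at 0.36 ± 0.28.

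Lysosomal genes had a median of -0.04 over 31 tested, beside -0.02 over all tested genes. Atp6v1h and Atp6v1a encode subunits of the proton pump that acidifies lysosomes, and these were the 2 list members higher without overlap (6.45%, beside 4.14% of all tested genes). Atp6v1h read 35.9, 35.2 and 38.3 CPM in the WT and 64.9, 52.6 and 49.8 CPM in the KO (log2 difference 0.60 ± 0.23, unadjusted p = 0.0272). Atp6v1a read 105, 125 and 113 CPM in the WT and 188, 130 and 143 CPM in the KO (0.42 ± 0.24). The WT libraries agreed closely for both, and KO replicate 1 was the highest. Tpp1, a peptidase, was at 0.37 ± 0.25 and the cathepsin gene Ctsz at -0.65 ± 0.48. Over 26 melanin and melanosome genes, 0 reached an unadjusted p under 0.05, with Hps1 at -0.45 ± 0.31, Hps5 at 0.36 ± 0.25, Mlph at -0.40 ± 0.29 and the pigment enzyme gene Tyr at 0.45 ± 0.33.

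Rod transcripts had higher means in the KO, and within each genotype they were highest in replicate 3, the male library. All 37 tested rod genes had a higher KO mean, with a median of 0.74 (0.48 without WT replicate 1), while 0 reached an unadjusted p under 0.05 and 0 separated the genotypes. Replicate 3 was the highest library of each genotype for all 37 rod genes, and KO replicate 1 was the lowest KO library for 36 of them. Gngt1 (1.46 ± 0.70), Rp1 (1.35 ± 0.66), Impg2 (1.18 ± 0.59) and Pdc (1.24 ± 0.70) had the smallest p in the list, at 0.064 to 0.106. The summed rod level was 1924, 1974 and 7552 CPM in the WT and 1715, 4810 and 12820 CPM in the KO. Cone genes had a median of 0.42 over 13 tested (0.73 without WT replicate 1), led by the blue cone opsin gene Opn1sw at 4.95, 13.4 and 33.8 CPM in the WT and 10.0, 41.9 and 136 CPM in the KO (1.73 ± 0.79). Inner retina neuron genes had a median of 0.27 over 31 tested (0.66 without WT replicate 1), with Syt1 at 1.34 ± 0.66 and the GABA-synthesising enzyme gene Gad1 at 1.22 ± 0.61. The part of retina left on the posterior segment in these values was not tested.

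Stromal genes were mostly lower in the KO with all libraries, and this depended on WT replicate 1. Of 37 fibroblast and sclera genes, 33 had a lower KO mean, 5 at an unadjusted p under 0.05, 6 lay lower without overlap (16.2%) and 23 were highest in WT replicate 1. Over all tested genes these shares were 1.17% and 4.02%, and 5494 of 18399 were highest in WT replicate 1. The median of the list moved from -0.44 to 0.00 without that library, when 19 were lower and 3 reached that p. Of all tested genes, 9052 of 18393 were then lower, 76 of them at that p. Igfbp6, an IGF-binding protein, read 26.0, 31.95 and 39.2 CPM in the WT and 11.6, 23.7 and 17.02 CPM in the KO (log2 difference -0.90 ± 0.31, unadjusted p = 0.0172), and -1.01 (unadjusted p = 0.0151) without WT replicate 1. Cilp, a cartilage and sclera matrix gene, read 43.3, 42.1 and 53.0 CPM in the WT and 20.04, 29.8 and 33.0 CPM in the KO (-0.73 ± 0.27), and -0.77 without it. WT replicate 3 was the highest library for Igfbp6 and Cilp, whereas WT replicate 1 was for Chil1 and Pi16 (-0.97 ± 0.38). Igfbp5, singled out after its values were seen, gave 4664, 4449 and 4538 CPM in the WT and 3358, 3162 and 3385 CPM in the KO, a wide gap against the spread of either group, although the test gave -0.46 ± 0.36 (unadjusted p = 0.233).

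Macrophage genes also had mostly lower means in the KO. Of 29 macrophage and microglia genes, 27 had a lower KO mean, 3 at an unadjusted p under 0.05, 25 were highest in WT replicate 1, and the median moved from -0.63 to -0.19 without that library, when 20 were lower and 0 reached that p. Over all tested genes 1.17% were lower at that p and 5494 of 18399 were highest in WT replicate 1. H2-Aa, an antigen-presenting molecule, read 65.6, 29.8 and 26.7 CPM in the WT and 20.04, 14.5 and 24.8 CPM in the KO (log2 difference -0.96 ± 0.38), and -0.51 without it. C1qc (-1.04 ± 0.42) and C1qa (-0.94 ± 0.38), subunits of the first complement component, were lower in mean but overlapped, and Laptm5, a lysosomal protein of leukocytes, was at -0.89 ± 0.41. Without WT replicate 1, C1qa was at -0.53 and Laptm5 at -0.30. The complement list, which shares the C1q genes, had 15 of 21 lower with a median of -0.45, or -0.08 without WT replicate 1. Serping1, the C1 inhibitor gene, was at -0.67 ± 0.28 and clusterin, Clu, at -0.72 ± 0.33. Of 33 interferon response genes 14 had a higher and 19 a lower mean (median -0.08, or 0.06 without WT replicate 1). Of these, 0 reached an unadjusted p under 0.05, with Zbp1 at -1.32 ± 0.71 (-0.38 without that library), Gbp3 at -0.55 ± 0.35, Oas3 at -0.54 ± 0.37 and Oas2 at 0.40 ± 0.34.

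Most genes of vessels and their wall had a slightly lower mean in the KO, with 1 gene of each list at an unadjusted p under 0.05. Over all tested genes, 9588 of 18399 had a lower mean, and 1.17% were lower at that p. Values lower without overlap were found for 2 endothelium genes (7.69%) and 1 wall gene (5.88%), beside 4.02% of all tested genes. Among 26 choroidal endothelium genes 24 had a lower mean, with a median of -0.25 (-0.17 without WT replicate 1), and among 17 smooth muscle and pericyte genes 15 did, with a median of -0.25 (-0.27 without it). Sox18, an endothelial transcription factor, read 38.4, 29.8 and 40.4 CPM in the WT and 15.8, 22.1 and 27.5 CPM in the KO (log2 difference -0.70 ± 0.28, unadjusted p = 0.032), without overlap. Cspg4, the pericyte marker NG2, read 116, 96.9 and 107 CPM in the WT and 54.8, 75.6 and 77.0 CPM in the KO (-0.62 ± 0.24, unadjusted p = 0.0258), also without overlap. Eng (-0.66 ± 0.33), Cdh5 (-0.56 ± 0.29) and Erg (-1.04 ± 0.59, or -0.05 without WT replicate 1) followed among endothelial genes, and Lmod1 (-0.65 ± 0.41, or -0.31 without it), Pdgfrb (-0.39 ± 0.26) and Smtn (-0.45 ± 0.32) among wall genes.

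Of 20 Schwann cell and myelin genes 14 had a lower KO mean, 5 at an unadjusted p under 0.05, and 5 were highest in WT replicate 1. Their median was -0.25, or -0.15 without that library, when 13 were lower, 2 at that p. The shares of all tested genes given above, 1.17% lower at that p and 5494 of 18399 highest in WT replicate 1, are the background here too. With that library left out, 76 of 18393 tested genes were lower at that p. Mbp, the major myelin protein gene, read 26580, 4089 and 2607 CPM in the WT and 2219, 3245 and 3531 CPM in the KO (log2 difference -1.89 ± 0.81), and -0.16 without WT replicate 1. Prx (-1.58 ± 0.52) and Ncmap (-1.22 ± 0.53), genes of Schwann cell myelin, were highest in WT replicates 1 and 2. In the list of cornea and epidermis 13 of 26 genes had a higher and 13 a lower KO mean (median -0.01, or -0.19 without WT replicate 1), and 11 were highest in that library. Lower values at an unadjusted p under 0.05 were found for 10 of the 26 (1.17% of all tested genes) and higher values for 1 (0.908%). With WT replicate 1 left out, lower values at that p were found for 1, beside 76 of 18393 tested genes. Krt14, a basal keratin, read 1570, 160 and 106 CPM in the WT and 51.2, 141 and 81.1 CPM in the KO (-2.73 ± 0.90), and -0.54 without that library. Krt1 (-4.83 ± 1.45), Krt17 (-3.61 ± 1.15) and Sprr1a (-4.34 ± 1.40) were at -1.23, -0.71 and -0.96 without it, whereas Krt12, the keratin of the cornea, was lowest in WT replicate 1 at 574 CPM against 3589 to 4499 CPM elsewhere. Of 43 skeletal muscle genes 0 reached an unadjusted p under 0.05, and their summed level ran from 16020 to 63350 CPM in the KO and from 26600 to 70000 CPM in the WT.

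**Figure D4:**
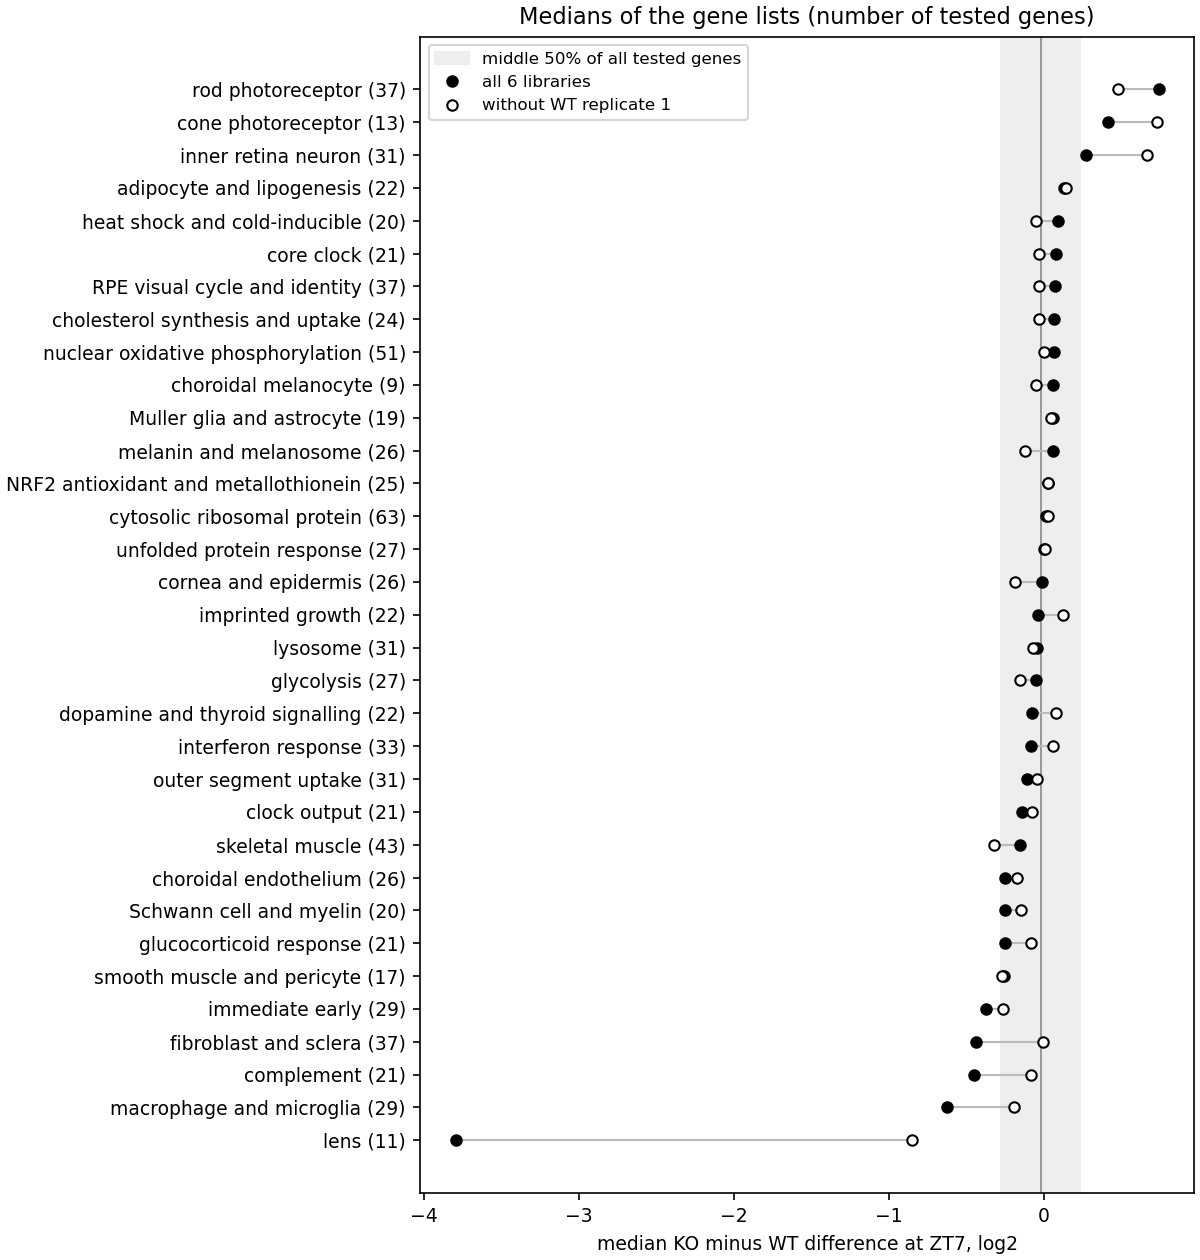
Median KO minus WT difference at ZT7 on the log2 scale for each gene list with at least 9 tested genes, with all 6 libraries (filled) and without WT replicate 1 (open), beside the middle 50% of all tested genes (grey band) and their median (line). The core clock median stays near 0 (0.08 and -0.03), the lens median moves from -3.79 to -0.85, and the immediate early median moves from -0.38 to -0.26.

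Metabolic and stress lists each held at most 2 genes at an unadjusted p under 0.05. Over all tested genes, 0.908% were higher and 1.17% lower at that p. Of 27 glycolysis genes, 1 was lower at that p and 2 lay lower without overlap (7.41%, beside 4.02% of all tested genes). The gene at that p was Pfkfb4, for a bifunctional enzyme, at 39.6, 34.7 and 39.3 CPM in the WT and 22.7, 29.8 and 25.3 CPM in the KO (log2 difference -0.54 ± 0.24, unadjusted p = 0.0495). Of 51 nuclear genes for oxidative phosphorylation, 1 was higher at that p, Ndufa4. It read 8.67, 10.7 and 8.61 CPM in the WT and 11.6, 11.8 and 59.1 CPM in the KO, so that KO replicate 3 made the difference (1.59 ± 0.61). Cholesterol genes (24 tested), lipogenesis genes (22), cytosolic ribosomal protein genes (63), heat shock and cold-inducible genes (20) and genes of the unfolded protein response (27) held 0 at an unadjusted p under 0.05, with medians from 0.00 to 0.13. The smaller p values among them included those of Mvk (-0.52 ± 0.25), Hspa1b (0.56 ± 0.27) and Creb3l1 (-0.95 ± 0.46, or -0.50 without WT replicate 1). Among 25 antioxidant genes, Gstm1, a glutathione transferase gene, read 144, 110 and 124 CPM in the WT and 71.2, 56.1 and 107 CPM in the KO (-0.68 ± 0.28, unadjusted p = 0.037), and Hmox1, the heme-degrading enzyme gene, was at -1.12 ± 0.48, or -0.47 without WT replicate 1. Glucocorticoid-responsive genes (21 tested, median -0.25, or -0.08 without WT replicate 1) held 0 at an unadjusted p under 0.05, with Sgk1, which encodes a kinase, higher in the KO without overlap (0.42 ± 0.24) and Cdkn1a at -0.47 ± 0.26. Of these 21 genes 1 lay higher and 1 lower without overlap (4.76% each), beside 4.14% and 4.02% of all tested genes. Imprinted growth genes (22 tested) and choroidal melanocyte genes (9) also held 0 at an unadjusted p under 0.05. Among 19 genes of Muller glia and astrocytes 1 reached that p, Spc25 at 1.21 ± 0.53.

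Whether ZT7 differed from the other times of day was tested as the departure of its KO minus WT difference from the mean difference at ZT1, ZT13 and ZT19, with all 24 libraries in edgeR. The count was 0 of 18399 genes (0%), with a smallest adjusted p of 0.968 and 505 genes at an unadjusted p under 0.05, and DESeq2 called 0 with 536 at that level. Among the 21 core clock genes 0 reached an unadjusted p under 0.05. The median KO minus WT difference of immediate early genes was -0.38 at ZT7 in the fit of the 6 libraries. It was 0.01, -0.02 and -0.13 at ZT1, ZT13 and ZT19 in the fit of all 24. Departures of the immediate early genes were below 0 for 25 of 29, with a median of -0.41 beside -0.01 over all tested genes. Fibroblast and sclera (33 of 37), macrophage (27 of 29) and lens genes (11 of 11) were mostly below 0 too. Egr1 (-1.18, unadjusted p = 0.00566) and Fos (-0.92, unadjusted p = 0.0142) were the only 2 of the 29 at an unadjusted p under 0.05. Over all tested genes 505 of 18399 reached that p, and 220 without WT replicate 1. Gdf10 had the smallest departure p of the 20 named genes, at -1.33 (unadjusted p = 0.00101), followed by Tlk1 (0.75), Siglec1 (-1.44) and Smc3 (0.82). These 20 genes were chosen by their difference at ZT7, which is itself a part of the departure. The choice thus favoured small departure p values among them. Since no departure passed the adjusted threshold, none of these patterns was shown to be particular to ZT7.

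**Figure D5:**
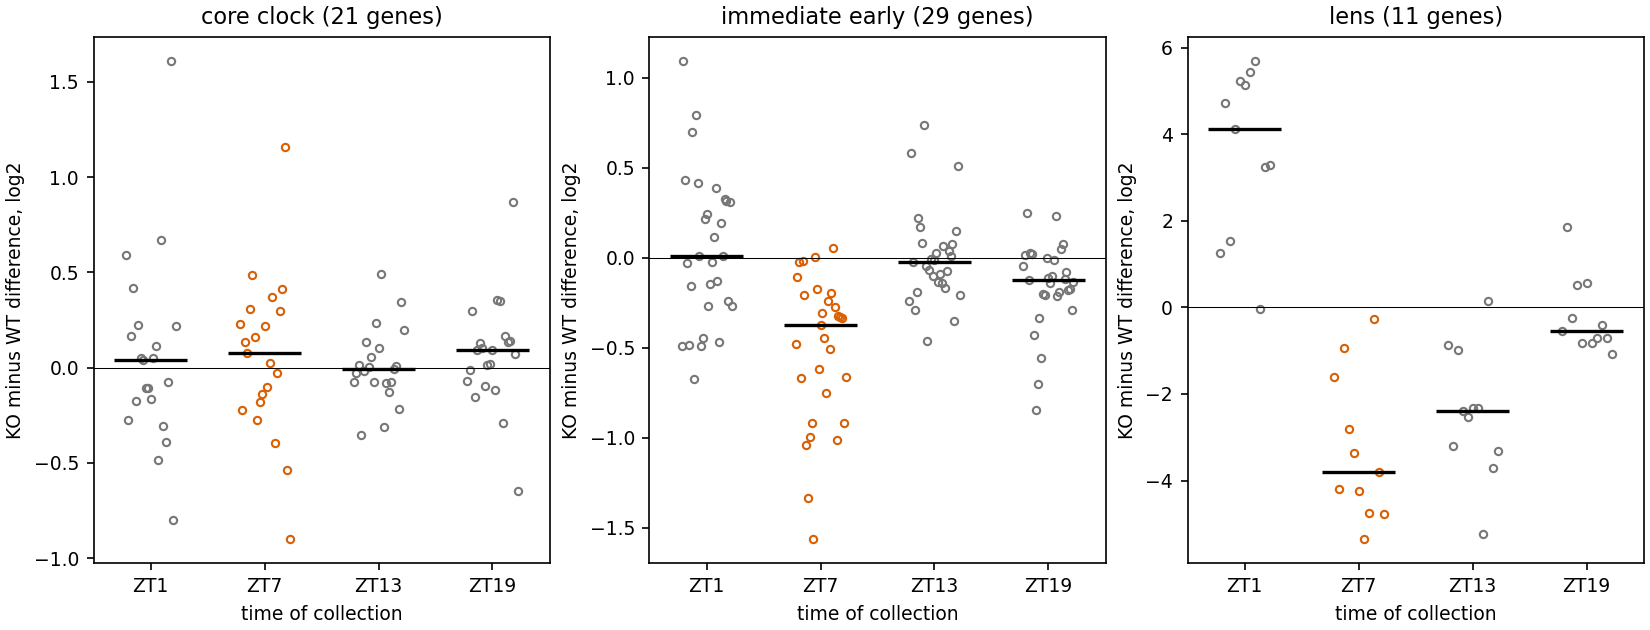
KO minus WT difference on the log2 scale at ZT1, ZT7 (orange), ZT13 and ZT19 for each tested gene (circles) of the core clock, immediate early and lens lists, with the median as a line and a vertical axis of its own for each panel. Core clock medians stay between -0.01 and 0.09, immediate early genes are lowest at ZT7 (median -0.38), and lens genes run from 4.12 at ZT1 to -3.79 at ZT7.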

How the data were processed

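RNA was measured by stranded total RNA sequencing in 24 RPE libraries. The deposited table holds raw read counts per Ensembl gene, which the authors made from reads aligned to mm10 with Bowtie2 2.3.4 and counted with HTSeq 0.9.1, per the labels. The annotation release and the strand setting are not given in the sources used here. A further 11 columns with no sample name were not used. Of 53700 identifiers, 52147 matched GENCODE M21 and 48091 were autosomal. Library size was the sum over all autosomal genes for the filter and over the tested autosomal genes for scaling and testing. Either sum leaves the mitochondrial share out. Genes were kept by filterByExpr (minimum count 10), scaled by TMM and tested with edgeR 4.0.16 (glmQLFit, glmQLFTest, Benjamini-Hochberg, R 4.3.3), without a block. Differences given for ZT1, ZT13 and ZT19, and the departures, come from a fit of all 24 libraries. Alternatives used DESeq2 1.42.0 and limma 3.58.1. CPM refers to TMM-scaled tested counts, SE is of the log2 difference, and intervals use the test's degrees of freedom.

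Named genes were the core clock genes with Dbp, Tef, Hlf and Nfil3, 4 genes of the study (Drd2, Dio2, Itgb5, Mertk), 10 protein-coding genes per direction with the smallest unadjusted p (at least 1 CPM, no overlap), and up to 4 per list. A few genes that this rule names are not reported here. The comparison, the members and the lists were chosen with earlier results of these data known. The 3 libraries of a group came from separate mice. Depth ran from 2069527 to 9811251 counts and was lowest in WT replicate 1, so values near 1 CPM rest on few counts there.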

Additional observations from a re-analysis of the deposited data

How the results depend on the processing

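The count of genes that differ between the genotypes at ZT7 was 0 under every other setting but 2. Testing every autosomal gene with at least 1 count called 139 of 40234 (33 higher and 106 lower in the KO), of which 62 were among the 18399 genes tested above, 94 were highest in WT replicate 1 and 24 had over 90% of their counts in 1 library, and Cryaa, Crybb2, Crygs, Mip, Cryba1, Dio2 and AI593442 were among them. DESeq2 called 1. Leaving out single libraries, with the genes filtered anew, gave 0 calls each time. The genes at an unadjusted p under 0.05 then ran from 244 of 19128 (without WT replicate 1) to 871 of 20040 (without WT replicate 2). The departure of ZT7 was also called in 0 genes under each setting, with 220 (without WT replicate 1) to 1547 (without WT replicate 2) genes at that level. Same-numbered libraries of the 2 genotypes gave correlations of -0.02, -0.25 and 0.11 between their deviations from the group means. Sex and the order of depth followed replicate number alike in both genotypes. The correlations thus do not show the numbers to be unrelated. The replicate block called 0 genes, with 289 and 577 at an unadjusted p under 0.05 for the 2 questions. All 20 genes named by p kept their sign in all 19 alternatives that could be fitted. They were chosen for a lack of overlap between the genotypes in the same libraries. That choice nearly sets the sign in advance, so its constancy adds no support.

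Some clock and signalling genes changed sign. Most lay near 0 with all libraries, but Dio2 (-1.62), Timeless (-0.90), Drd2 (0.69) and Clock (0.31) did not. Per2 turned to 0.0104 by library size alone, 0.0124 with library size over all genes, 0.0119 with no filter, 0.027 among protein-coding genes, 0.0081 with all chromosomes, 0.0237 with the replicate block, 0.0239 in limma and 0.0017 without both libraries numbered 1. Nfil3 turned to 0.0172 with the replicate block. Without both libraries numbered 1 the values were -0.11 for Clock, -0.34 for Nr1d1, 0.49 for Timeless, 0.0457 for Dbp, -0.0773 for Tef and 0.63 for Nfil3. Leaving out single libraries moved Arntl from -0.0386 to 0.57, Npas2 from -0.28 to 0.11, Per2 from -0.24 to 0.28, Cry2 from -0.0442 to 0.47, Nr1d1 from -0.23 to 0.42, Ciart from -0.28 to 0.30, Bhlhe40 from -0.47 to 0.0731, Fbxl21 from -0.37 to 0.13, Timeless from -1.41 to 0.20, Dbp from -0.26 to 0.30, Tef from -0.0736 to 0.31, Nfil3 from -0.58 to 0.61, Drd2 from -0.29 to 1.08, Dio2 from -2.14 to 0.11 and Mertk from -0.20 to 0.21. The cause was not tested. With 3 mice per genotype the typical standard error was 0.367 on the log2 scale, so a lack of calls does not show that genes were equal. WT replicate 1, with 869564 autosomal counts, limits the genes near 1 CPM.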
